A study of Drosophila melanogaster with 3 samples.

Results

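The sodium potassium pump was followed here at the level of its mRNAs in adult heads of wild-type *Drosophila melanogaster*. The members were the 5 genes of the pump named in the annotation, 2 for the catalytic alpha subunit (*Atpalpha* and *JYalpha*) and 3 for the beta subunit (*nrv1*, *nrv2* and *nrv3*), out of 17558 genes in the count table. They were chosen by name, with the counts of these libraries already known, so their levels and the ratios between them are given as a description with no test. The data were 3 libraries of polyadenylated RNA from untreated flies raised at 25°C, all of 1 group labelled wild type, with replicate numbers 1 to 3. The series text gives the strain as CantonS, whereas the methods of the study give w1118 for the flies it calls wild type. The strain of these libraries is thus not settled. The study used adult flies of both sexes, but the age of the flies and the share of each sex in these libraries are not given in the sources used here. The labels do not say whether the libraries came from separate cultures, so the spread between them may be technical.

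The pump is a P-type ATPase of the plasma membrane that uses ATP to move sodium out of the cell and potassium into it. The gradients it builds carry action potentials, the light response of photoreceptors and the uptake of transmitters by glia. The alpha subunit binds ATP and moves the ions, and the beta subunit is a glycoprotein with a single membrane span that brings alpha to the cell surface. In flies, *Atpalpha* mutants include bang-sensitive and paralytic alleles. *nrv2* is widely used as a source of glial drivers, *nrv3* is known from neurons, and Atpalpha and Nrv2 are also components of septate junctions, the occluding junctions of insect epithelia and of the glial blood-brain barrier. *JYalpha* is known for its part in male fertility and in the sterility of hybrid males between *D. melanogaster* and *D. simulans*.

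The libraries held 6299265 to 8332583 counts, the most in replicate 1. Levels are in counts per 1000000 counts of a library (CPM), on which a floor of 3 counts lay between 0.36 and 0.476. Genes whose counts over all libraries came to 10 or more were taken as detected, which held for 10100 genes and for 4 of the 5 members. Markers of neurons (5 of 5), glia (6 of 6) and photoreceptors (6 of 6) were all detected, with ninaE, the major rhodopsin, at 21871 CPM ± 1096 (SD, n = 3). Replicate 2 differed from the others in composition. Its mitochondrial genes took 3.88% of counts against 7.20% and 6.62% in replicates 1 and 3, and its 5 fat body markers summed to 25302 CPM against 16214 and 17961. Nearly all of that sum came from the yolk protein genes Yp1 (12147 CPM against 7397 and 8672), Yp2 (5630 against 3967 and 4267) and Yp3 (7395 against 4699 and 4991). The other fat body markers were Lsp2, at 130 CPM against 150 and 31, and Fbp1, with 6 counts against 1 and 2.

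The genes were read from their positions in the dm6 coordinates. *Atpalpha* (FBgn0002921) spans bases 20948714 to 20976239 of chromosome 3R on the plus strand and has 11 annotated transcripts. Of these, 9 encode proteins of 1002 residues, not all from the same coding exons, 1 a protein of 1041 residues and 1 of 839. Its next protein-coding gene downstream, 1943 bp away, was *Calx*, the sodium calcium exchanger. *JYalpha* (FBgn0267363) lies near the end of chromosome 4 at 879 to 5039, plus strand, with 1 transcript for 1009 residues. *nrv1* (FBgn0015776, chromosome 2L, 6778555 to 6786861) and *nrv2* (FBgn0015777, chromosome 2L, 6789770 to 6798862) are neighbours on the minus strand, 2908 bp apart. *nrv3* (FBgn0032946) lies apart from them on chromosome 2L at 21380000 to 21393319, plus strand. The beta proteins have 309 residues for *nrv1*, 322 or 323 for *nrv2* and 311 or 313 for *nrv3*. Exons of the 5 members overlapped 0 exons of other genes on either strand, transposons included.

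The transcripts of a gene differ in length mostly outside the coding sequence, and this bears on every level per length given below. Coding exons can differ too at equal or nearly equal protein length. In *Atpalpha* transcripts for 1002 residues, 1 coding exon starts 18091, 18394, 19678 or 22169 bases from the 5' end of the gene. In *nrv2* the coding part starts at base 2381 or 5493 from that end. *nrv3* has a pair of transcripts with a 3' UTR of 192 bases and a pair with one of 3164 bases, so that its transcripts run from 1519 to 4637 bases around nearly the same protein. In *Atpalpha* the 3' UTR runs from 406 to 2308 bases and the transcripts from 3558 to 5545. *nrv2* has 1 length of 3' UTR, 869 bases, and its transcripts of 1949 to 2668 bases differ elsewhere. The counts are per gene and do not tell which transcripts were in use.

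**Figure D1:**
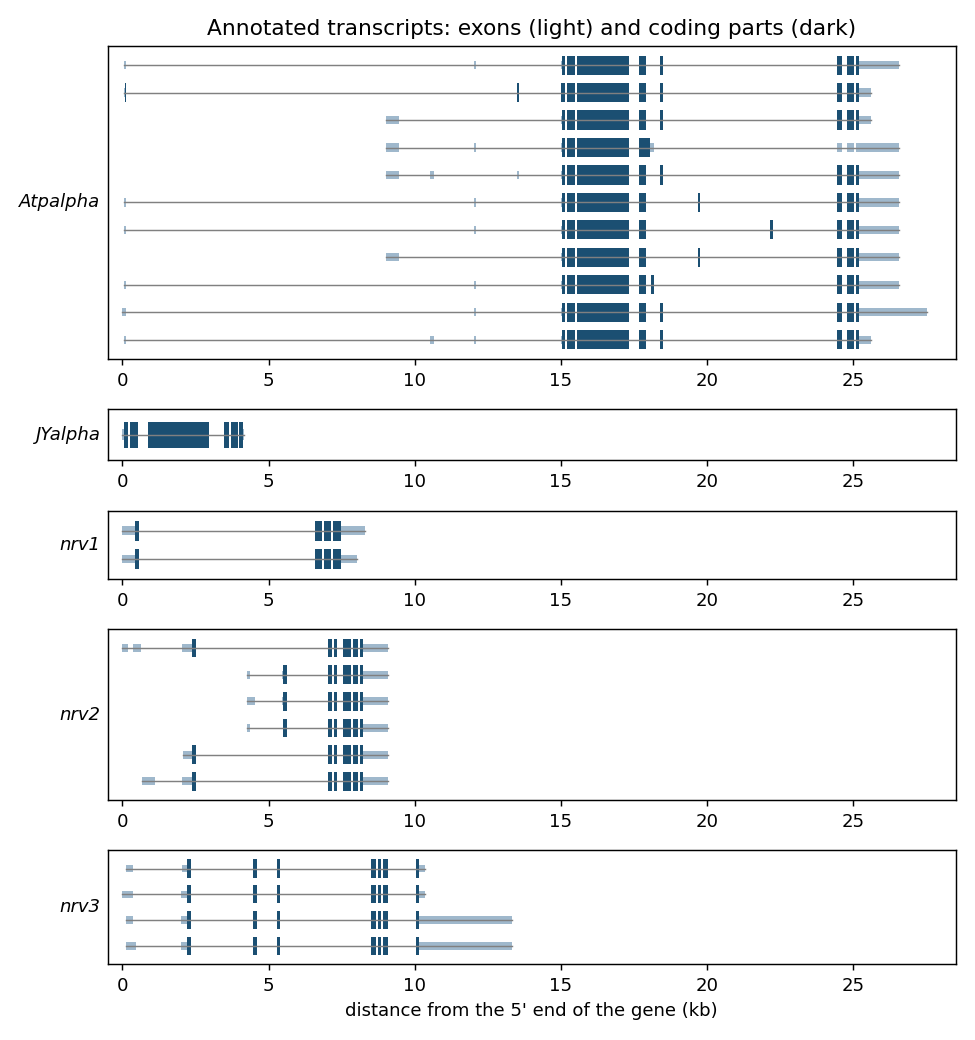
Annotated transcripts of the 5 genes, drawn to scale from the 5' end of each gene in kilobases, with exons as light bars, coding parts as dark bars and introns as lines. Among the 4 transcripts of *nrv3*, a pair ends in a 3' UTR of 3164 bases and a pair in one of 192 bases.

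*Atpalpha*, the catalytic subunit, was among the most abundant mRNAs of the head. Its counts were 42558, 33151 and 31319 in the order of the replicates, or 5107, 4511 and 4972 CPM. The Wilson 95% intervals were 5059 to 5156, 4463 to 4560 and 4917 to 5027 CPM, and they cover counting error only. Replicates 1 and 3 lay close together and replicate 2 below them. With a mean of 4863 CPM ± 313 (SD, n = 3) it ranked 9 among detected genes and exceeded 99.9% of them. Per kilobase of exon (the union of all annotated exons, 6680 bases) the level was 728 CPM ± 46.8 (SD, n = 3), which ranked 83 among the 9901 detected genes with a known length.

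*JYalpha*, the other alpha gene, was at the edge of detection. Its counts were 2, 0 and 2 in the same order, or 0.24, 0 and 0.317 CPM, each under the floor of its library. For the 0 in replicate 2 the Wilson 95% interval reached up to 0.523 CPM, above the floor of 0.408 CPM. Over all libraries it took 4 of 107032 alpha counts, a share of 0.00374% (exact Clopper-Pearson 95% interval 0.00102% to 0.00957%). *JYalpha* and *Atpalpha* code for related proteins, and whether reads of one were counted for the other was not tested. Of 8 testis and germline markers in the table, 1 was detected, the meiotic phosphatase gene twe with 10, 12 and 8 counts. The 8 markers summed to 1.56, 4.08 and 1.75 CPM in replicates 1, 2 and 3. The *JYalpha* counts of 2, 0 and 2 are too few to be compared with these sums.

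The beta subunits came in the order *nrv3*, *nrv2* and *nrv1* in every library. For *nrv3* the libraries gave 14783, 9608 and 10967 counts, or 1774, 1307 and 1741 CPM. Replicate 2 was the low one, and the intervals of replicates 1 (1746 to 1803) and 3 (1709 to 1774) overlapped. The mean was 1607 CPM ± 260 (SD, n = 3), at rank 51 among detected genes.

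*nrv2* had 6717, 4906 and 4510 counts in replicates 1, 2 and 3, or 806, 668 and 716 CPM. Here replicate 1 was high and replicate 2 low. Its mean of 730 CPM ± 70.3 (SD, n = 3) exceeded 98.3% of detected genes, at rank 169.

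*nrv1* had 2275, 1869 and 1653 counts in the same order, or 273, 254 and 262 CPM. It was the steadiest of the members, with a coefficient of variation of 3.56% over the libraries against 16.2% for *nrv3*. Its mean of 263 CPM ± 9.38 (SD, n = 3) exceeded 92.5% of detected genes, at rank 754.

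**Figure D2:**
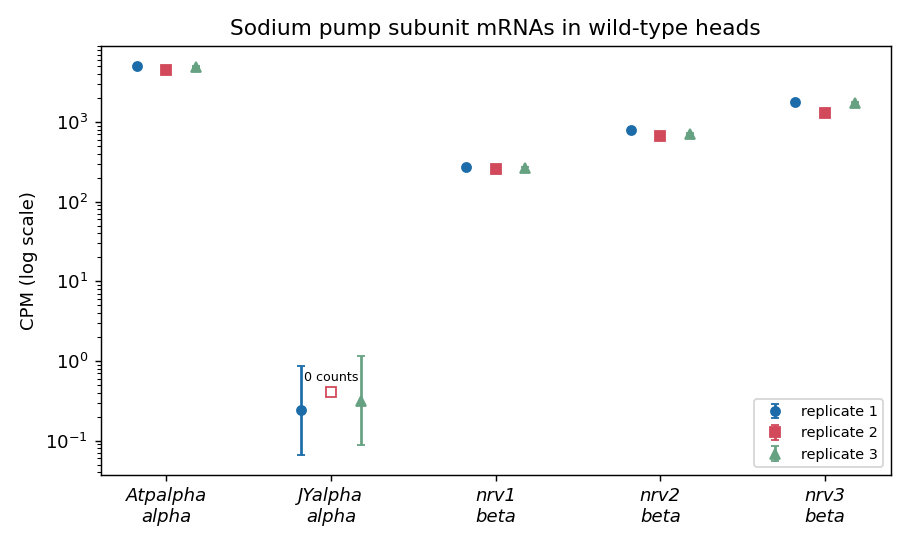
CPM of each pump subunit gene on a log axis, with 1 point per library (circle for replicate 1, square for replicate 2, triangle for replicate 3) and Wilson 95% intervals as bars. The open square stands at the floor of 0.408 CPM for *JYalpha* in replicate 2, where it had 0 counts, and the *Atpalpha* points lie between 4511 and 5107 CPM.

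The 5 genes together took 0.796%, 0.674% and 0.769% of all counts in replicates 1, 2 and 3. Alpha counts were 0.486% ± 0.0313 of the library and beta counts 0.26% ± 0.0329 (SD, n = 3). Within the beta counts, *nrv3* held 61.6% ± 2.73, *nrv2* 28.2% ± 1.81 and *nrv1* 10.2% ± 1.04 (SD, n = 3).

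The ranks by CPM and the shares of counts above grow with the length of an mRNA, so levels were also divided by length. Per kilobase of exon union, *Atpalpha* lay between 675 and 765 CPM, *nrv3* between 274 and 372, *nrv2* between 187 and 226 and *nrv1* between 116 and 124 over the 3 libraries. These ranges did not overlap, and the order was the same in each library. On this scale *nrv3* exceeded 97.7% of detected genes, *nrv2* 96.5% and *nrv1* 94.1%. The log2 ratio of *Atpalpha* to *nrv3* was 1.12 ± 0.15 (SD, n = 3), that of *nrv3* to *nrv2* 0.71 ± 0.16 and that of *nrv2* to *nrv1* 0.77 ± 0.09. Each of these neighbours in the order differed by more than 2 SD of the ratio over the libraries. Of the summed beta level per kilobase, *nrv3* then made up 50.8% ± 2.96, *nrv2* 31.0% ± 1.59 and *nrv1* 18.2% ± 1.59 (SD, n = 3).

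Summed over the genes of each subunit, alpha and beta mRNA were close to each other per kilobase of exon union. The alpha sum was higher in 3 of 3 libraries, with log2 ratios of 0.08, 0.23 and 0.12 in replicates 1, 2 and 3. The mean of 0.14 ± 0.08 (SD, n = 3), a fold of 1.10, was within 2 SD of 0, so the subunits did not differ beyond the spread of the libraries on this scale. Replicate 2 had the highest ratio, as *nrv3* was lowest there.

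The balance of alpha and beta turned with the length used, which was not the case for the order of the beta genes. Divided by the longest coding sequence (3123 bases for *Atpalpha* and 939 for *nrv3*), the log2 ratio of alpha to beta was -0.81 ± 0.09 (SD, n = 3), with beta higher in 3 of 3 libraries. Divided by the shortest transcript, a setting chosen after the values were seen, it was -0.19 ± 0.10. Divided by the longest transcript it was 0.25 ± 0.07, and by the median transcript 0.13 ± 0.08. *Atpalpha* exceeded *nrv3* per kilobase with each transcript length. With the coding length the ratio was -0.13 ± 0.15 (SD, n = 3), within 2 SD of 0, and the libraries differed in its sign (-0.21, 0.05 and -0.22). *nrv3* stayed above *nrv2*, and *nrv2* above *nrv1*, with every length in every library. The log2 ratio of *nrv3* to *nrv2* ran from 0.33 with the longest transcript to 1.49 with the shortest, and that of *nrv2* to *nrv1* from 0.77 to 1.45. The share of *nrv3* in the beta sum ran accordingly from 46.7% to 67.2%.

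**Figure D3:**
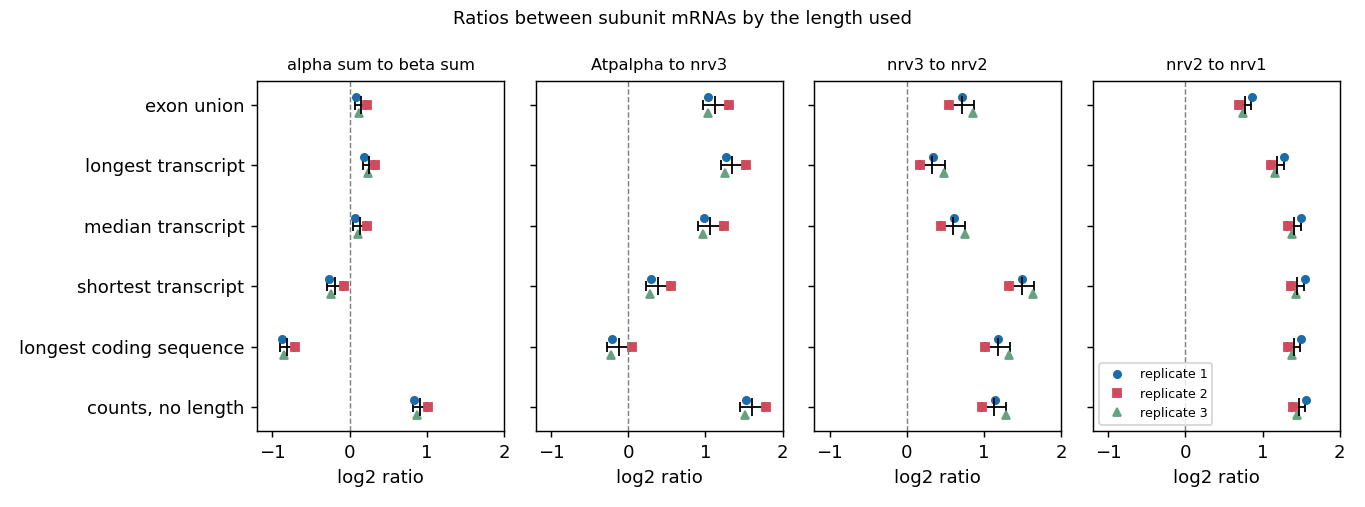
Log2 ratios between subunit mRNAs for 6 choices of length, with 1 point per library and the mean ± SD over 3 libraries in black. The dashed line marks equal levels, and the alpha to beta ratio lies on both sides of it, from -0.81 with the coding length to 0.91 for counts without a length, whereas the ratios of *nrv3* to *nrv2* and *nrv2* to *nrv1* stay to its right.

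All 4 detected members were lowest in replicate 2. After TMM scaling (edgeR's correction for composition), replicate 2 lay below the mean of replicates 1 and 3 by a log2 difference of -0.48 for *nrv3*, -0.24 for *nrv2*, -0.22 for *Atpalpha* and -0.13 for *nrv1*. The median over all 10079 detected genes with a count in every library was 0.01. Of these genes, 4.27% had a lower value than *nrv3* in replicate 2, and 15.2% had a lower value than *Atpalpha*. TMM-scaled *nrv3* was 1801, 1274 and 1760 CPM, a span of 1.41-fold between the libraries. For *nrv1* the span was 1.12-fold.

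Whether the libraries differed more for a gene than for genes of like abundance was asked with edgeR's quasi-likelihood fit over 9049 genes. This fit called 29 genes, 0.320% of those tested, and 0 of the 4 members tested. At an unadjusted p under 0.05 it gave 420 of the 9049 genes and 0 members, and DESeq2 dispersion outliers were 107 of the 9049 genes and 0 members. With shares this small over all genes, 0 of 4 members says little about them. The edgeR p was 0.0976 for *nrv3*, 0.245 for *nrv2*, 0.588 for *nrv1* and 0.682 for *Atpalpha*, with a Benjamini-Hochberg adjusted p of 0.992 for each. *JYalpha* was left out by the filter on low counts. With all genes that had a count, the p of *nrv3* was 0.0456 (adjusted p 0.898, edgeR), and without replicate 2 it was 0.822 (adjusted p 0.995, edgeR). When single libraries were altered in simulated counts of the 9049 genes, the fit found 1.49% of genes altered 2-fold and 85.1% of those altered 4-fold, whereas the members spanned at most 1.41-fold, so a p above the threshold does not show that their libraries were alike.

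Other features of replicate 2 moved with the pump genes. Over all 10079 detected genes with a count in every library, 4934 were lower in replicate 2. Neuron markers (elav, nSyb, Syt1, brp and Syn) were lower there in 5 of 5 cases, with a median log2 difference of -0.24. Syt1, the calcium sensor of synaptic vesicles, was at -0.37. The neuron markers summed to 4005, 3579 and 4230 CPM in replicates 1, 2 and 3. Glia markers (repo, moody, Gs2, alrm, wrapper and Mdr65) were also lower in 6 of 6 cases but by little, with a median of -0.02 and sums of 2532, 2437 and 2352 CPM. Photoreceptor markers were split, with 3 of 6 lower and a median of -0.06. Among muscle markers 4 of 5 were lower, with a median of -0.26, the value of the myosin heavy chain gene Mhc. Act88F (26, 23 and 116 counts) and fln (2, 2 and 6 counts) were low in replicate 1 as well and high in replicate 3. TpnC4 was not lower (0.07), and up (-0.22) was also low in replicate 3 (-0.17). Muscle markers summed to 4784, 3872 and 4134 CPM. The low values of replicate 2 were thus not particular to neuron markers, though among muscle markers this rests on Mhc. In whole heads, fewer cells of a type and less RNA per cell cannot be told apart.

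Gene length moved with the difference too. Detected genes were set into 4 groups of like number by the length of their exon union. The group of the longest genes (3515 bases and above), which held *Atpalpha*, *nrv2* and *nrv3*, had a median log2 difference of -0.09 in replicate 2, and the group of the shortest (up to 1270 bases) had 0.09. The 75th percentile of the longest group in replicate 2 was 0.02. All 5 neuron markers (4072 bases or more) were in this group, whereas of the 6 glia markers only moody and Mdr65 were. Among the 2470 genes of the longest group, 1.74% lay below *nrv3*, 15.9% below *nrv2* and 20.5% below *Atpalpha*. The part of cell types, gene length or composition in the low values of replicate 2 was not tested. Among the marker lists, the edgeR fit called the flight muscle actin gene Act88F (26, 23 and 116 counts, adjusted p 0.0375) and the larval serum protein gene Lsp2 (1252, 956 and 195 counts, adjusted p 0.00959), which stood apart in replicate 3 and not in replicate 2.

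**Figure D4:**
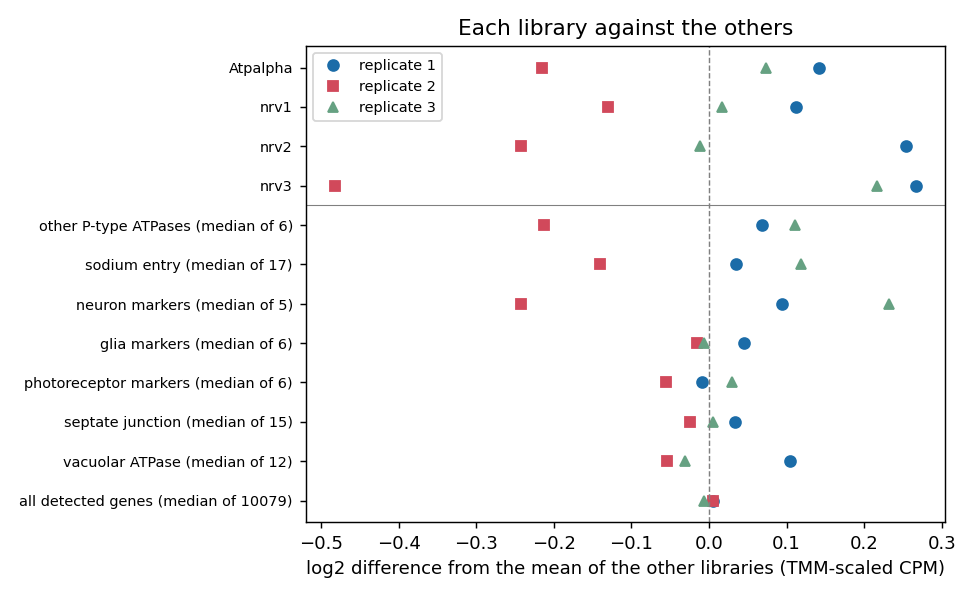
Log2 difference of each library from the mean of the other libraries in TMM-scaled CPM, for the 4 detected pump genes (above the line) and as medians over gene lists (below it). The squares of replicate 2 lie furthest to the left for *nrv3* (-0.48), and those of neuron markers (-0.24) and other P-type ATPases (-0.21) lie further left than those of glia markers (-0.02).

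Genes that resemble the pump subunits were nearly silent in heads. Of 5 such genes in the table, 2 were detected. CG33310, which carries the synonym NaKbeta in RefSeq, had 20, 16 and 11 counts, and CG45062, with the synonym alphalike, had 6, 3 and 7. CG45063 had 0, 3 and 1 counts, CG11703 had 0, 2 and 0, and CG5250 was listed at 0 in every library. The highest, CG33310, reached 0.801 CPM ± 0.126 per kilobase (SD, n = 3), against 120 ± 4.27 for *nrv1*, the lowest of the detected members. *NKAIN*, which codes for a membrane protein reported to bind a pump beta subunit, was at 33.4 CPM ± 1.8 per kilobase (SD, n = 3) and, unlike the pump genes, was not low in replicate 2 (log2 difference 0.08).

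The other P-type ATPases give a scale for the catalytic subunit. All 6 were detected, with a median of 76.9 CPM per kilobase, and the edgeR fit called 0 of them. The highest was SERCA, the calcium pump of the endoplasmic reticulum, at 376 CPM ± 46.1 per kilobase (SD, n = 3), and the lowest was ATP7, a copper transporter, at 12.9 ± 1.22. *Atpalpha*, at 728, was above each of them in mean level, whereas *nrv3* (337 ± 54.6) lay within 1 SD of SERCA on this scale. Without the length SERCA, at 3103 CPM ± 381, was above *nrv3* at 1607 ± 260 (SD, n = 3), and below *Atpalpha* at 4863 ± 313. In replicate 2, 5 of the 6 were lower than in the mean of the other libraries, SERCA by a log2 difference of -0.35.

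Among genes through which sodium enters cells, the channels of the light response were closest in level to the catalytic subunit. All 17 genes of this list in the table were detected, with a median of 40.5 CPM per kilobase. The light-response channels trp (887 CPM ± 50.8 per kilobase, SD, n = 3) and trpl (882 ± 42.1) were above *Atpalpha* on this scale. The remaining 15 genes were below *nrv2*. The order of *Atpalpha* and these channels turned without the length, with 3682 CPM ± 211 for trp and 3433 ± 164 for trpl against 4863 ± 313 for *Atpalpha* (SD, n = 3). The glutamate transporters Eaat1 and Eaat2, at 173 and 168 CPM per kilobase, came next, and DAT, the dopamine transporter, was the lowest at 8.77. *Calx*, the neighbour of *Atpalpha*, was at 43.5 CPM ± 3.74 per kilobase (SD, n = 3). The voltage-gated sodium channel gene *para* was not analysed here. In replicate 2, 16 of the 17 were lower than in the mean of the others, with a median of -0.14, and the fit called 0 of them.

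Per kilobase of exon union, septate junction genes stood below *Atpalpha* and *nrv2*, whose proteins share this junction. All 15 were detected, between 11.6 CPM per kilobase for crok and 69.7 ± 2.12 (SD, n = 3) for cora, which codes for the scaffold protein Coracle, with a median of 24.4. Each was below *nrv1*, *nrv2* and *Atpalpha* in mean level on this scale. Without the length cora, at 421 CPM ± 12.8, was above *nrv1* at 263 ± 9.38 (SD, n = 3), and below *nrv2* and *Atpalpha*. They did not share the low values of replicate 2 to the same degree, with a median log2 difference of -0.02 and 9 of 15 lower. The subunits of the vacuolar ATPase, a proton pump of many parts, were closer to the beta genes. Its 12 genes in the table ranged from 51.6 CPM per kilobase for Vha100-2 to 366 for Vha16-1, with a median of 141, beside a median of 271 over the 4 detected pump genes and 12.3 over all detected genes. Neither list had a gene called by the fit.

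**Figure D5:**
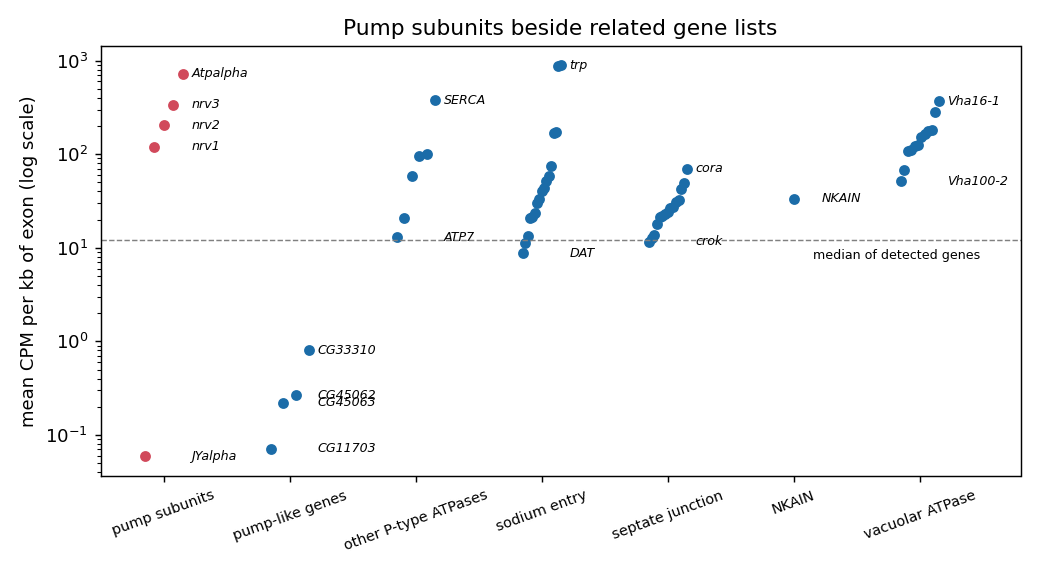
Mean CPM per kilobase of exon union over 3 libraries on a log axis, with 1 point per gene, for the pump subunits and 6 lists of related genes. The dashed line is the median of detected genes (12.3), genes without a count are not drawn, and the 4 detected subunits lie between 120 and 728 while the pump-like genes lie below 1 CPM per kilobase.

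Genes nearest in level to each member were taken by the distance of log2(CPM per kilobase + 1) over the 3 libraries among detected genes. Nearest to *Atpalpha* were rtp, which codes for the photoreceptor protein retinophilin (702 CPM ± 29.7 per kilobase, distance 0.12), and Gapdh1, a glycolytic enzyme gene (694 ± 28.9, distance 0.16; SD, n = 3). Nearest to *nrv1* were the reticulon gene Rtnl1 (120 ± 6.50) and hoe1 (122 ± 3.70), and nearest to *nrv2* were Gad1, the enzyme of GABA synthesis (212 ± 15.6), and Mpcp1, a mitochondrial phosphate carrier (211 ± 32.4). *nrv3* had no neighbour as close. CG10077 (330 ± 18.9) lay at a distance of 0.27 and kdn, the citrate synthase gene (366 ± 41.6), at 0.28, and in both the low value of replicate 2 was smaller in size than in *nrv3*.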

How the data were processed

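The authors deposited a table of raw counts, not normalized, for genes named by FlyBase ID in 3 libraries. Per the labels, 150 ng of total RNA went into the TruSeq Stranded mRNA kit. The submitters' processing notes name STAR 2.7.4a, Subread, featureCounts and dm6, and the methods of the study name snakePipes with an Ensembl annotation. The strand setting and the treatment of reads mapped to several places are not given in the sources used here. 0 columns and 0 rows were left out.

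Symbols, positions and lengths came from Ensembl release 115 (dm6 coordinates), which matched 17252 of 17558 genes (98.3%). Listed genes without a match in the table (para, vas and 4 vacuolar ATPase genes) were not analysed here. Synonyms in RefSeq (Release 6 plus ISO1 MT) linked CalX, cont and CG3701, which is split into 2 genes there. No sequence was used.

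Counts were scaled to CPM over the library total. Each ratio was taken within a library on the log2 scale after adding 0.5 count to both genes. Neighbours in the order of levels were said not to differ beyond their spread when the mean ratio was within 2 SD of 0. Levels and ratios were given no test. For replicate variability, genes passing filterByExpr entered a quasi-likelihood fit (edgeR 4.0.16 in R 4.3.3) with TMM scaling, an intercept only, the upper F tail of each quasi-dispersion and Benjamini-Hochberg adjustment. DESeq2 1.42.0 was an alternative. Simulated counts held 200 genes changed in 1 library by 2-fold, 4-fold or 8-fold.

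Members and gene lists were chosen with earlier results of these data known. All members are described. From each list the highest and lowest gene per kilobase, the pump-like genes, any listed gene called and the 2 genes nearest to each member were named. Syt1, Mhc, up, TpnC4, Yp2, Yp3, Fbp1, trpl, Eaat1, Eaat2, Calx, ninaE and twe were named after their values were seen. The grouping by gene length was also chosen after the values were seen.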

Additional observations from a re-analysis of the deposited data

How the results depend on the processing

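The choice of length moved the ratios most. The log2 ratio of alpha to beta (0.14) was 0.25 with the longest transcript, -0.19 with the shortest, -0.81 with the coding sequence and 0.91 with no length. That of *Atpalpha* to *nrv3* (1.12) was 1.35, 0.38, -0.13 and 1.61 in the same order, that of *nrv3* to *nrv2* (0.71) was 0.33, 1.49, 1.18 and 1.13, and that of *nrv2* to *nrv1* (0.77) was 1.19, 1.45, 1.40 and 1.47, and 1.41 with the median transcript. The construction of these settings shows the cause, since only the divisor changes. The shortest transcript was chosen after the data were seen. Leaving out 1 library kept these ratios at 0.10 to 0.17, 1.03 to 1.17, 0.63 to 0.79 and 0.72 to 0.80. The 29 genes called for replicate variability became 118 with all genes that had a count, 107 as DESeq2 dispersion outliers and 44 to 57 with 1 library left out (55 without replicate 1, 57 without replicate 2 and 44 without replicate 3), and the cause was not tested. No member was called under any of these settings, 0 of 4 or, with all genes that had a count, 0 of 5. In all, 81 of 123 alternative values stayed the same, meaning within 1 SD over the libraries of the main value. For numbers of called genes, the same meant equal or close to the main value. Of these 81, 45 came from leaving out 1 library. A mean level or ratio cannot move by 1 SD when 1 of 3 libraries is left out. Most of the 45 were therefore fixed in advance and say nothing about stability. No paired analysis was possible because the design has 1 group only. Comparisons of sequences between members were not run. Depth limits *JYalpha* alone among the members, as its counts lie under the floor of 3 in each library.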
